A study of Mus musculus with 32 samples.

Results

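Pdxdc1 encodes a protein with a pyridoxal-dependent decarboxylase domain, and on the mouse array used here it was read by 3 probe sets whose strain profiles ran in opposite directions. The members were found by symbol, as every probe set that the platform annotation assigns to Pdxdc1 alone. They were 97713_at, 160163_at and 94312_at, out of 12422 non-control probe sets that stood for 8252 named genes. The gene was selected on the measured strain profiles of these probe sets, so its levels and the way the profiles oppose are given as a description, with no test. All 3 probe sets passed the filter on low signal, a mean log2 signal of at least 4.41.

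The study measured hippocampal RNA of untreated mice from 8 inbred strains, DBA/2J, C3H/HeJ, BALB/cByJ, A/J, FVB/NJ, SJL/J, C57BL/6J and strain-129S1/SvImJ, to ask which transcripts differ between strains. Each strain was 1 pool of RNA from 6 mice, and their sex and age were not given. From the cDNA of each pool 2 preparations of cRNA were made. Both were put on 2 arrays each, giving 4 arrays per strain and 32 in all. By the series design, preparation 1 is on arrays 1 and 2 of a strain, and preparation 2 on arrays 3 and 4. The title of FVB/NJ array 2 carries a day that is otherwise found on second-preparation arrays. Counted in preparation 2, it turned FVB/NJ on 97713_at from 3.32 ± 0.31 into 3.71 ± 1.10 (4.49 and 2.93 by preparation), on 160163_at into 6.83 ± 0.26 and on 94312_at into 6.79 ± 0.20. The labels name no engineered allele. Levels are log2 of the deposited signal. A strain mean and its SD are over the 2 preparations (n = 2), so every spread given here is technical, none is between animals, and the number of arrays limits the precision.

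Enzymes that use pyridoxal phosphate, the active form of vitamin B6, hold it in their catalytic centre and use it to rearrange amino acids. The decarboxylases among them make several transmitters of the brain: glutamate decarboxylase makes GABA, aromatic amino acid decarboxylase makes dopamine and serotonin, and histidine decarboxylase makes histamine. Pdxdc1 was assigned to this family from its sequence, and its own substrate is not well established. A probe set on this array is a group of short oligonucleotides that together read a stretch of a transcript, so different probe sets of a gene can read different stretches. RefSeq (assembly GRCm38.p6) places Pdxdc1 on chromosome 16, on the minus strand, with 7 transcripts, of which 4 are curated and 3 are predicted. Which stretch of these transcripts each probe set reads, and whether the strains differ in sequence there, was not analysed here.

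The hippocampal label was set against marker genes. Of the neuronal markers, strain means were 11.85 to 12.24 for Snap25, a synaptic fusion protein, 9.49 to 10.5 for the plasticity protein Nrgn, and 6.62 to 7.82 for Neurod6, while Prox1, which marks granule cells of the dentate gyrus, read 4.59 to 5.67, near the array medians. Markers of other sources had signal too: Ttr of the choroid plexus read 6.11 to 8.46 and Hba-a1 of blood 9.19 to 10.39. Of the striatal markers Penk read 6.92 to 8.27, but Drd2 read 4.57 to 5.53, near the array medians. Of the cerebellar markers Pcp2 read 5.8 to 7.5 and Cbln1 5.23 to 6.45. The part of these sources in the results was not tested. Alb of liver read 2.65 to 3.64. The array medians lay between 4.88 and 5.45 (log2). Sense-strand controls for actin and Gapdh (6 probe sets) were high on 11 arrays (6.95 to 7.84) and low on 21 (4.91 to 5.64). The high ones included every BALB/cByJ array, the first preparation of SJL/J, of C3H/HeJ and of A/J, and FVB/NJ array 1. FVB/NJ array 1 (7.39) and array 2 (5.33), counted in the same preparation, thus lay on different sides. In every other preparation both arrays lay on the same side. Which preparation FVB/NJ array 2 belongs to was not settled here.

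Probe set 97713_at divided the strains into 3 with a high signal and 5 with a low one. DBA/2J read 8.14, 8.18, 8.27 and 8.29 on its arrays 1 to 4, a mean of 8.22 ± 0.08 (SD, n = 2). C3H/HeJ read 7.98, 7.97, 8.35 and 8.29, a mean of 8.15 ± 0.24. BALB/cByJ read 7.85, 7.47, 8.27 and 7.93, a mean of 7.88 ± 0.31. These 12 arrays, from 7.47 to 8.35, were the highest of all 32. A/J followed after a gap of 4.27 between strain means, with 3.09, 4.14, 2.93 and 4.30 on its arrays and a mean of 3.61 ± 0.00. FVB/NJ read 4.49, 2.58, 3.56 and 2.63, a mean of 3.32 ± 0.31. SJL/J read 2.83, 3.88, 4.38 and 2.04, a mean of 3.28 ± 0.10. In these strains the arrays of 1 preparation differed by more than the preparation means did. C57BL/6J read 3.10, 2.91, 3.74 and 2.23, a mean of 3.00 ± 0.01. The lowest strain was strain-129S1/SvImJ, with 2.32, 3.22, 3.51 and 2.70 and a mean of 2.94 ± 0.24. The 20 arrays of the low strains lay between 2.04 and 4.49, and no array overlapped with the high set.

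On the linear scale the geometric mean signal of 97713_at was 298 for DBA/2J, 283 for C3H/HeJ and 235 for BALB/cByJ. In the low strains it ran from 7.66 in strain-129S1/SvImJ to 12.2 in A/J. The strain range was 5.28 in log2, the widest of 7453 tested probe sets, whose median range was 0.68. Every low array lay below the lowest array median, and detection calls were not used here. The low values are therefore signals near the bottom of the scale, the means of all 5 low strains lay under the filter limit, and the range depends on them. With 16 added to each signal before log2 the range was 3.71 and ranked 1, and with 64 added it was 2.33 and ranked 7. Strain held 94.8% of the sum of squares over the 32 arrays, preparation 0.345% and array 4.82%. In the high set C3H/HeJ overlapped by preparation with both DBA/2J and BALB/cByJ, while both preparations of DBA/2J (8.16 and 8.28) lay above those of BALB/cByJ (7.66 and 8.10). Among the low strains all neighbours in the order overlapped by array, although the preparation means of A/J and FVB/NJ, and of SJL/J and C57BL/6J, did not. With array 2 of FVB/NJ in preparation 2, its preparations lay on either side of those of A/J.

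**Figure D1:**
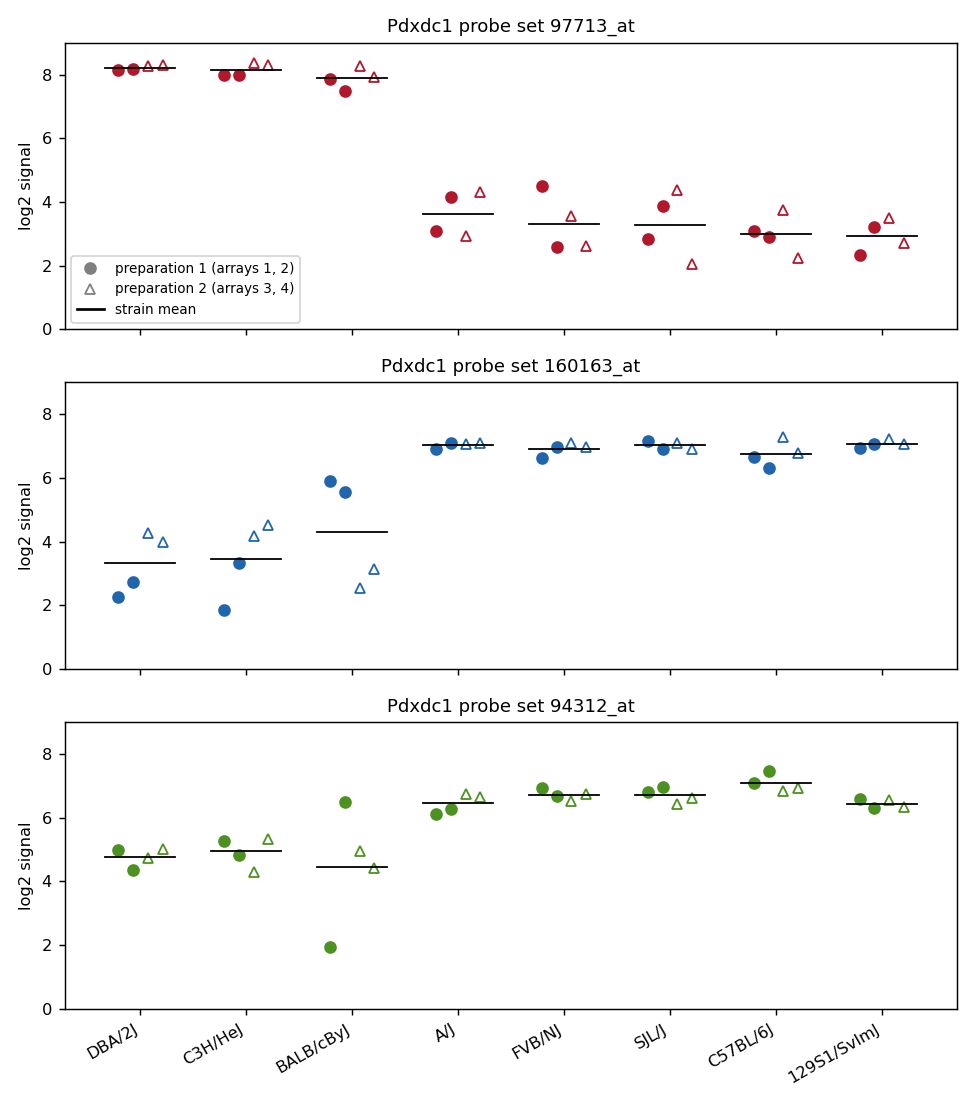
Log2 signal of 97713_at (top), 160163_at (middle) and 94312_at (bottom) on each of 32 arrays, by strain. Filled circles are arrays of preparation 1, open triangles are arrays of preparation 2, and lines are strain means. The 3 strains at the left lie between 7.47 and 8.35 on 97713_at and below the others on 160163_at, whereas on 94312_at 1 BALB/cByJ array (6.49) reaches into the range of the other strains.

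Probe set 160163_at gave the inverse division. The highest strain was strain-129S1/SvImJ, with 6.94, 7.08, 7.23 and 7.08 on its arrays and a mean of 7.08 ± 0.10. A/J read 6.91, 7.11, 7.06 and 7.10, a mean of 7.05 ± 0.05. SJL/J read 7.17, 6.92, 7.11 and 6.90, a mean of 7.03 ± 0.03. These levels differed by less than the spread of their preparations. FVB/NJ read 6.64, 6.98, 7.09 and 6.97, a mean of 6.92 ± 0.16. C57BL/6J read 6.66, 6.30, 7.29 and 6.77, a mean of 6.75 ± 0.39. After a gap of 2.46 came the strains that were high on 97713_at. BALB/cByJ read 5.92, 5.55, 2.56 and 3.15, a mean of 4.29 ± 2.03. C3H/HeJ read 1.85, 3.34, 4.19 and 4.53, a mean of 3.47 ± 1.25. DBA/2J read 2.26, 2.72, 4.28 and 4.00, a mean of 3.32 ± 1.16. The low arrays lay between 1.85 and 5.92 and the high arrays between 6.30 and 7.29, again with no overlap.

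The spread between preparations on 160163_at was largest in the low strains. Preparation 2 minus preparation 1 was -2.87 in BALB/cByJ, 1.77 in C3H/HeJ and 1.65 in DBA/2J. It lay between -0.04 and 0.55 in the other 5 strains. BALB/cByJ thus moved the other way from C3H/HeJ and DBA/2J, and its first preparation (5.73) lay above every array median while its second (2.86) lay below. Strain held 83.5% of the sum of squares and preparation 14.6%. Among the 3 low strains the preparations overlapped, so their order is not settled. The geometric mean signal fell from 136 in strain-129S1/SvImJ to 108 in C57BL/6J, and was 19.6 in BALB/cByJ, 11.1 in C3H/HeJ and 9.96 in DBA/2J. The means of the 3 low strains lay under the filter limit, so this range too rests on signals near the bottom of the scale. The strain range was 3.77 and ranked 5 of 7453. It was 2.49 and ranked 13 with 16 added to each signal, and 1.40 and ranked 63 with 64 added.

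Probe set 94312_at followed 160163_at, with a smaller range. C57BL/6J was highest, at 7.09, 7.46, 6.85 and 6.92 on its arrays and a mean of 7.08 ± 0.28. FVB/NJ read 6.93, 6.68, 6.52 and 6.74, a mean of 6.72 ± 0.12. SJL/J read 6.82, 6.97, 6.42 and 6.61, a mean of 6.71 ± 0.27. C57BL/6J and FVB/NJ did not overlap by preparation, but did by array. A/J read 6.13, 6.27, 6.75 and 6.64, a mean of 6.45 ± 0.35. The arrays of strain-129S1/SvImJ read 6.58, 6.29, 6.55 and 6.33, a mean of 6.44 ± 0.01. A gap of 1.50 separated these from the same 3 strains that were low on 160163_at. C3H/HeJ read 5.28, 4.84, 4.30 and 5.34, a mean of 4.94 ± 0.17. DBA/2J read 5.0, 4.36, 4.72 and 5.03, a mean of 4.78 ± 0.14. BALB/cByJ read 1.93, 6.49, 4.95 and 4.42, a mean of 4.45 ± 0.34. The first 2 arrays of BALB/cByJ carry the same cRNA and held both the lowest value of all 32 arrays and the only low-strain value inside the range of the high strains.

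By array, 5 high-strain arrays of 94312_at lay below that BALB/cByJ array of 6.49, whereas by preparation the low strains reached 5.06 at most and the high strains started at 6.20. Strain held 70.7% of the sum of squares, preparation 2.09% and array 27.2%. The strain range was 2.63, or 6.19-fold, and ranked 31 of 7453, and no strain mean lay under the filter limit. Without array 2 of BALB/cByJ it was 3.77. With 16 added to each signal it was 1.80 and ranked 66, and with 64 added 1.12 and ranked 140. The geometric mean signal was 135 in C57BL/6J, 86.8 in strain-129S1/SvImJ and 21.8 in BALB/cByJ.

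Differences between the probe sets within an array were also taken. The log2 difference, 97713_at minus 160163_at, was 4.90 ± 1.08 for DBA/2J, 4.67 ± 1.01 for C3H/HeJ and 3.58 ± 2.34 for BALB/cByJ. It was -3.43 ± 0.05 in A/J, -3.61 ± 0.47 in FVB/NJ, -3.75 ± 0.07 in SJL/J, -3.76 ± 0.40 in C57BL/6J and -4.15 ± 0.14 in strain-129S1/SvImJ. Probe sets differ in their response, so a difference within an array shows only that the probe sets changed unequally between strains. It does not show which transcript was more abundant, nor that both signals changed. The levels of each probe set describe its own signal. Whether the signals followed the amount of transcript was not tested. For 97713_at minus 94312_at the strain means were 3.21 to 3.44 in the first 3 strains and -4.08 to -2.83 in the others. For 94312_at minus 160163_at the strain means ran from -0.64 to 1.46. Its SDs were large in BALB/cByJ (2.37), C3H/HeJ (1.42) and DBA/2J (1.02), and single BALB/cByJ arrays ran from -3.99 to 2.39.

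Over the 8 strain means, Pearson's r was -0.986 between 97713_at and 160163_at and -0.971 between 97713_at and 94312_at. It was 0.930 between 160163_at and 94312_at. The strains fall into separate sets of 5 and 3 on each probe set, so these values mostly express the gap between the sets, and neither set is large enough for a value of its own. Spearman's rho was -0.786, -0.667 and 0.452 in the same order. In preparation 1 alone r was -0.878, -0.933 and 0.702, and in preparation 2 alone -0.960, -0.986 and 0.969. After each array's strain mean was subtracted, r over the 32 arrays was -0.002, -0.062 and -0.221, near 0 for both opposed pairs. All these points share arrays, and no p-value is given for them.

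**Figure D2:**
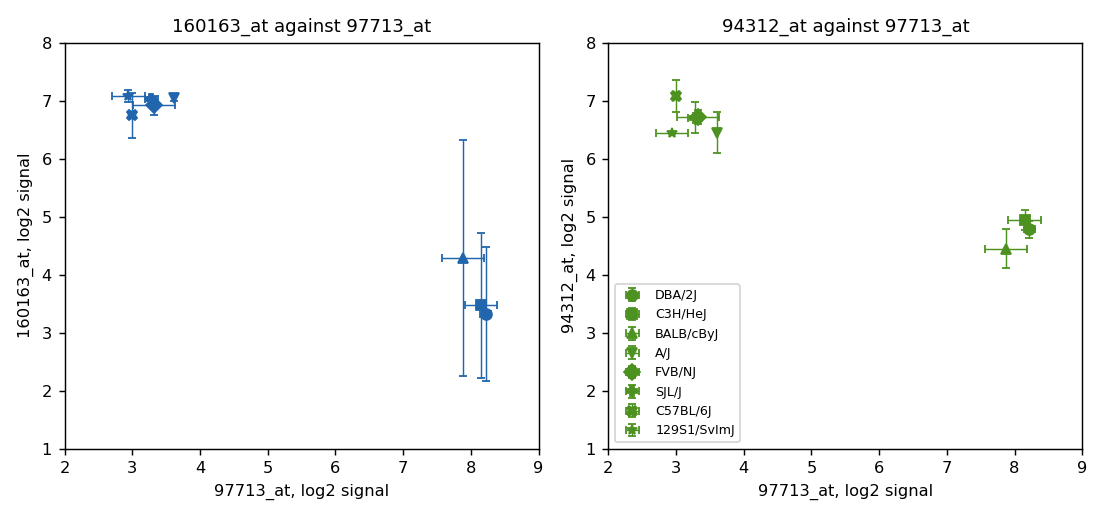
Strain means of 160163_at (left) and 94312_at (right) against 97713_at, all in log2 signal; symbols mark the 8 strains and bars are the SD of 2 preparations. DBA/2J, C3H/HeJ and BALB/cByJ lie at the lower right (97713_at 7.88 to 8.22) and the other 5 strains at the upper left (2.94 to 3.61), with no strain between.

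The sample titles end in 1 of 6 days, named A to F here, and the step each day belongs to is not stated. Day A holds 8 strains, and days B, C and D hold 7 strains each. On each of these days the arrays of DBA/2J, C3H/HeJ and BALB/cByJ that were present were the highest on 97713_at and the lowest on 160163_at. On 94312_at the same order held except on day B, where BALB/cByJ (6.49) lay above strain-129S1/SvImJ and A/J. The strain range within a day was 5.82 on 97713_at, 5.32 on 160163_at and 5.16 on 94312_at for day A, and on day D it was 6.25 for 97713_at and 1.89 for 94312_at. Both second-preparation arrays of BALB/cByJ were on days E and F, shared with 1 array of FVB/NJ, which read 2.63 on 97713_at against 8.27 in BALB/cByJ.

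High sense-strand control signal was found on 6 of the 12 arrays of the strains high on 97713_at and on 5 of the 20 arrays of the others. DBA/2J had none, and its levels on all 3 probe sets were those of its set. In C3H/HeJ, 160163_at read 1.85 and 3.34 on the arrays with high control signal and 4.19 and 4.53 on the others. Those with high signal are its preparation 1, so control signal and preparation cannot be told apart there. In DBA/2J 160163_at read 2.26 and 2.72 in preparation 1 and 4.28 and 4.00 in preparation 2. Without the 11 arrays BALB/cByJ has none left. The ranges were then 5.48 for 97713_at, 3.77 for 160163_at and 2.30 for 94312_at, and r between 97713_at and 160163_at was -0.970.

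Opposed pairs of probe sets, as defined below, were rare among genes with several tested probe sets. Of the tested genes, 944 had at least 2 tested probe sets, and the lowest r between probe sets of a gene had a median of 0.213 over the 8 strain means. It was below 0 for 344 genes and at or below -0.8 for 14. An opposed pair was defined as r of -0.8 or lower with both probe sets spanning 2-fold or more, and 2 genes had one (0.212%), Pdxdc1 with 2 pairs and Scd1 with 1. Because Pdxdc1 was chosen for this pattern, its place here is a description. The 2-fold condition itself limits the share of 0.212%, as 22.2% of all tested probe sets spanned 2-fold or more. Next after Pdxdc1 in order of r was Ttc39b, at -0.906, with ranges of 0.66 and 1.84.

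Scd1, a fatty acid desaturase, showed its pair (r = -0.819) between 94058_r_at and 94057_g_at. The first ran from 3.15 ± 0.83 in strain-129S1/SvImJ to 5.78 ± 1.04 in BALB/cByJ, and the second from 7.83 ± 0.35 in BALB/cByJ to 9.09 ± 0.11 in FVB/NJ. The other Scd1 probe set, 94056_at, ran from 8.31 ± 0.34 in BALB/cByJ to 9.40 ± 0.22 in FVB/NJ. The low Scd1 probe set had SDs of up to 2.39 between preparations. Only Pdxdc1 remained as an opposed pair after leaving out array 2 of BALB/cByJ, array 1 or 3 of C57BL/6J, array 1 or 2 of C3H/HeJ, array 2 or 4 of FVB/NJ, or array 3 of SJL/J. Without the second preparation of BALB/cByJ 4 genes had such a pair, Cdk5rap3 and Rhoa being added to Pdxdc1 and Scd1.

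**Figure D3:**
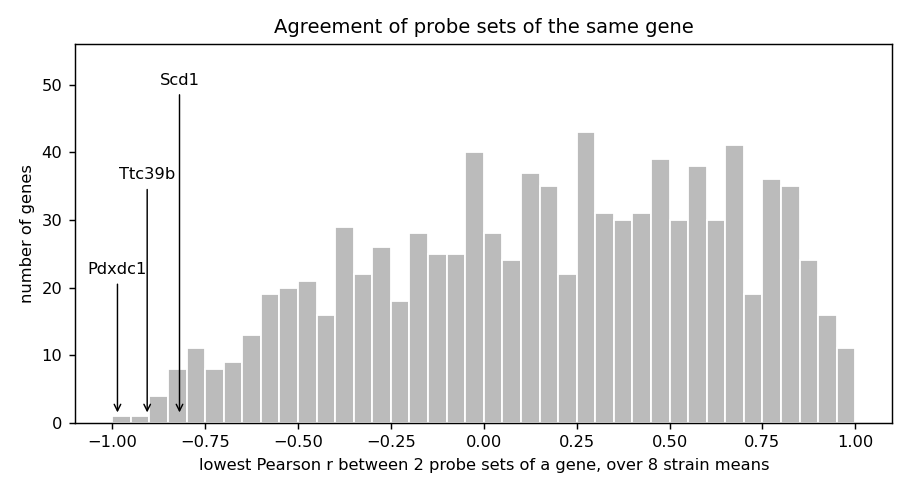
Lowest Pearson r over 8 strain means between any 2 tested probe sets of a gene, as a histogram over 944 genes. The arrows mark Pdxdc1 (-0.986), Ttc39b (-0.906) and Scd1 (-0.819), at the left edge of a distribution with a median of 0.213.

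The division of the strains was then looked for in other genes. Of the 7453 tested probe sets, 7 (0.0939%) held all 6 preparations of DBA/2J, C3H/HeJ and BALB/cByJ on 1 side of the 10 others, a search added after the data were seen. The 3 Pdxdc1 probe sets are 3 of the 7, which follows from how the gene was chosen. The others were Smarcb1, a subunit of a chromatin remodelling complex, Numa1, a protein of the mitotic spindle, Stmn3, a regulator of microtubules, and Ankrd46. The probe sets of Smarcb1, Numa1 and Stmn3 were higher in the 3 strains and that of Ankrd46 lower. Stmn3 and Ankrd46 have other tested probe sets that do not show the division, at r = 0.098 with 97713_at for that of Stmn3 and -0.606 and -0.546 for those of Ankrd46. Their strain ranges were 0.35 to 0.71, and the gap between the sets was 0.01 to 0.08, against 4.05 for 97713_at, 0.75 for 160163_at and 1.14 for 94312_at. Only 97713_at and 160163_at separated all 32 arrays.

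Likeness of profile was taken as Pearson's r over the 8 strain means among 1461 named probe sets spanning 2-fold or more. The gene most like 97713_at was Dusp2, a nuclear phosphatase that switches off MAP kinases (r = 0.942). Its level was 6.72 ± 0.05 in BALB/cByJ, 6.67 ± 0.65 in C3H/HeJ and 6.51 ± 0.25 in DBA/2J. Means elsewhere lay between 5.56 and 5.91, and the range was 1.16. The sets overlapped by preparation, with preparation 2 at 6.25 in strain-129S1/SvImJ (mean 5.84 ± 0.58) and 6.21 in C3H/HeJ. In preparation 2 alone r with 97713_at was 0.675, against 0.894 in preparation 1. Dusp2 was also the most opposite gene to 160163_at (-0.942) and to 94312_at (-0.927). Next to it came 100367_g_at of Casp9, the initiator caspase of the intrinsic apoptosis pathway (0.850), Alpl (0.849) and Sox7, a transcription factor (0.841). In preparations 1 and 2 alone r was 0.785 and 0.893 for Casp9, 0.738 and 0.588 for Alpl, and 0.584 and 0.603 for Sox7. The strain means of Sox7 ran from 4.13 to 5.14, on either side of the filter limit. Casp9 differed from Pdxdc1 in DBA/2J, where it read 6.24 ± 0.10, near A/J (6.13 ± 0.11) and not near BALB/cByJ (7.09 ± 0.08) and C3H/HeJ (6.97 ± 0.12).

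The most opposite gene to 97713_at was Prdx3, the mitochondrial peroxiredoxin (-0.903), which was also the most alike to 94312_at (0.924). Prdx3 read 7.13 ± 0.10 in BALB/cByJ, 7.41 ± 0.36 in C3H/HeJ and 7.84 ± 0.39 in DBA/2J, against 8.24 to 8.35 in the other strains. Then came Tspan4, a tetraspanin (-0.891), Bdnf, a neurotrophin (-0.884), and Acaa1b, a thiolase of peroxisomes (-0.838). In preparations 1 and 2 alone r was -0.787 and -0.438 for Tspan4, -0.895 and -0.762 for Bdnf, and -0.738 and -0.86 for Acaa1b. The strain means of Tspan4 ran from 3.69 to 4.97, on either side of the filter limit. Bdnf read 7.73 ± 0.01 in BALB/cByJ, 7.98 ± 0.52 in C3H/HeJ and 8.07 ± 0.19 in DBA/2J, against 8.37 to 8.73 elsewhere. Acaa1b had the widest range of these, 2.68, from 3.75 ± 0.27 in BALB/cByJ to 6.43 ± 0.03 in SJL/J, but its level in A/J (5.18 ± 0.05) was close to that in C3H/HeJ (4.85 ± 0.93).

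The genes most like 160163_at were Sbno1 (0.898), a regulator of transcription, Tspan4 (0.890), Bdnf (0.867) and Maz (0.843), a zinc finger protein. After Dusp2 the most opposite were Tmem129 (-0.881), a ubiquitin ligase of the endoplasmic reticulum, Meltf (-0.844), an iron-binding membrane protein, and Alpl (-0.806). Several of these values did not repeat in preparation 2 alone, where r was -0.030 for Maz (0.438 in preparation 1), -0.196 for Tmem129 and 0.436 for Sbno1. They hold for single probe sets: the other tested probe sets of Sbno1 had r of 0.719 and 0.254 with 160163_at, and that of Tmem129 -0.063. Of the 14 genes named for likeness to any Pdxdc1 probe set, 4 have other tested probe sets. Those of Casp9 kept their sign with 97713_at (0.673 to 0.759), and that of Acaa1b had r = -0.342. Besides Prdx3, the profile of 94312_at was followed by Tspan4 (0.912), Cenpc1 (0.893), a centromere protein, and Bdnf (0.879). For Tspan4 r with 94312_at was 0.677 in preparation 1 alone and 0.516 in preparation 2 alone. After Dusp2, the profile of 94312_at was opposed by Alpl (-0.923), 100367_g_at of Casp9 (-0.884) and Gcgr (-0.881), the glucagon receptor. Among the 104 named probe sets spanning 4-fold or more, a limit added after the data were seen, the largest size of r with 97713_at was that of Acaa1b. Fntb, a subunit of farnesyltransferase, followed at -0.807, and Thumpd1, an RNA-binding protein, at -0.774. Thumpd1 was low in BALB/cByJ (5.67 ± 0.07), C3H/HeJ (5.26 ± 0.08) and DBA/2J (5.32 ± 0.30), but also in A/J (5.15 ± 0.08).

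Other genes that use or handle pyridoxal phosphate were examined as a list of 49. Of these, 31 were on the array and 22 were tested, with limma's moderated F-test across the 8 strains and Benjamini-Hochberg adjustment over all 7453 probe sets. The test has no direction, and 0 of the 22 passed an adjusted p of 0.05, against 4.58% of all probe sets tested (341). At an unadjusted p of 0.05, 3 of 22 passed, against 15.7% of all. With the preparation number as a replicate block 6 of 22 passed (Gad1, Bcat1, Bcat2, Psat1, Alas1 and Pygb), against 18.9% of all (1405). With the arrays centred on their median 1 passed, and 1 also passed without array 3 of BALB/cByJ. The median strain range of the 22 was 0.60, against 0.68 over all tested probe sets.

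Among the decarboxylases and related enzymes of the list, 6 of 8 genes were tested and 0 passed without the block. Gad1, which makes GABA, was lowest in BALB/cByJ (9.23 ± 0.02) and highest in DBA/2J (9.96 ± 0.05), strains that share a level on 97713_at (limma adjusted p = 0.075, and 0.014 with the block). Gad2, the other GABA-making enzyme, ran from 4.86 ± 0.44 in C57BL/6J to 5.79 ± 0.28 in strain-129S1/SvImJ (limma adjusted p = 0.50). Ddc, the aromatic amino acid decarboxylase, ran from 4.20 ± 1.12 in A/J to 5.21 ± 0.20 in C57BL/6J (limma adjusted p = 0.72). With the block the limma adjusted p was 0.12 for Gad2 and 0.38 for Ddc. None of these orders put DBA/2J, C3H/HeJ and BALB/cByJ together on 1 side. Of 35 other enzymes of the list 13 were tested, and 0 passed without the block (4.58% over all probe sets) and 5 with it (18.9%).

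Of 6 genes that make or handle vitamin B6, 3 were tested and 0 passed with or without the block. Pdxk, the kinase that phosphorylates pyridoxal, ran from 8.85 ± 0.44 in C3H/HeJ to 9.25 ± 0.30 in BALB/cByJ (limma adjusted p = 0.97). Alpl, the alkaline phosphatase that dephosphorylates pyridoxal phosphate outside the cell, was the gene of this list named above for its likeness to 97713_at. It read 5.83 ± 0.22 in BALB/cByJ, 5.54 ± 0.19 in DBA/2J and 5.27 ± 0.03 in C3H/HeJ. Means of the other strains ran from 4.80 ± 0.21 in SJL/J to 5.12 ± 0.02 in strain-129S1/SvImJ. The sets overlapped by preparation. Preparation 2 of A/J (5.43, mean 4.90 ± 0.76) and preparation 1 of FVB/NJ (5.37, mean 4.94 ± 0.61) lay above both of C3H/HeJ (5.28 and 5.25). The range of 1.03 for Alpl did not pass the test (limma adjusted p = 0.56). With the block the limma adjusted p was 0.26 for Alpl and 0.19 for Pdxk.

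Genes beside Pdxdc1 on chromosome 16 were examined in the same way. Of 30 neighbours, 15 on each side in the RefSeq order, 7 were on the array and 5 were tested. By the limma F-test 0 of 5 passed (4.58% over all probe sets), 0 at an unadjusted p of 0.05 (15.7%) and 0 with the block (18.9%), and 5 genes are too few to be set apart from these shares. With single arrays as units and the day as a block 1 of 5 passed, Rrn3, against 31.2% of all probe sets. The median range of the 5 was 0.98, against 0.68 over all tested probe sets. Ntan1, an amidase of N-terminal asparagine, is the adjacent gene and lies on the opposite strand, its 3′ end facing that of Pdxdc1. It was lowest in BALB/cByJ (4.56 ± 0.70) and highest in DBA/2J (5.53 ± 0.68), which are on the same side for Pdxdc1 (limma adjusted p = 0.89). For Ntan1 the limma adjusted p with the block was 0.26.

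Rrn3, a transcription factor of RNA polymerase I, ran from 5.35 ± 0.74 in C3H/HeJ to 6.38 ± 0.19 in FVB/NJ (limma adjusted p = 0.65). Pla2g10, a secreted phospholipase, ran from 4.43 ± 0.43 in C3H/HeJ to 5.46 ± 0.33 in BALB/cByJ (limma adjusted p = 0.64). On the other side Nde1, a regulator of dynein, was lowest in BALB/cByJ (4.96 ± 0.36) and highest in DBA/2J (5.76 ± 0.53, limma adjusted p = 0.90). With the block the limma adjusted p was 0.12 for Rrn3, 0.26 for Pla2g10 and 0.11 for Nde1. In none of Rrn3, Pla2g10 and Nde1 did the strains fall into the sets seen on 97713_at. Parn, the remaining tested neighbour, was lowest in DBA/2J (5.69 ± 0.57) and highest in C3H/HeJ (6.38 ± 0.09), strains of the same set. Its limma adjusted p was 0.73, and 0.38 with the block. Myh11, smooth muscle myosin, and Abcc1, a transporter, fell under the filter on low signal, with strain means of 2.15 to 3.54 and 3.82 to 4.56, and were not tested. These data are from bulk tissue, in which fewer cells of a type and less RNA per cell cannot be told apart.

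**Figure D4:**
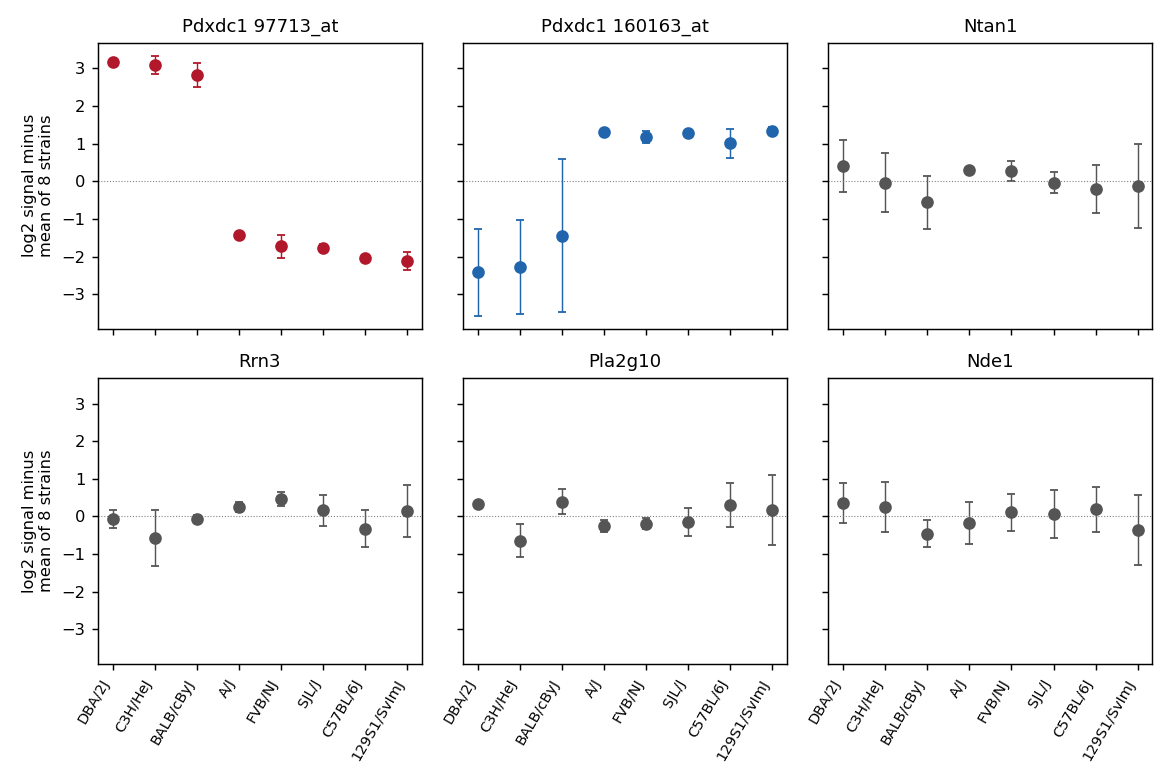
Log2 signal minus the mean of the 8 strains for 97713_at and 160163_at of Pdxdc1 and for the neighbours Ntan1, Rrn3, Pla2g10 and Nde1. Points are strain means and bars the SD of 2 preparations. Both Pdxdc1 panels step between BALB/cByJ and A/J in opposite directions, and none of the neighbours plotted shows such a step.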

How the data were processed

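RNA of 1 pool per strain was measured on 32 Affymetrix U74Av2 arrays. The authors deposited an intensity on a linear scale for each probe set on each array. They used MAS5, according to the submitters' processing notes. Its version, the scaling target and detection calls were not given in these sources. The trimmed mean of each array lay between 100.05 and 100.07, so arrays were taken as scaled by the authors. Gene names came from the platform annotation (10855 probe sets with 1 symbol, 396 with several, 1193 non-control probe sets unnamed), and 10839 matched RefSeq. Probe sets with several symbols named no gene.

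Signals under 1 were set to 1 (2.14% of values) and log2 was taken. Both arrays of a preparation were averaged, giving 16 values. The 60% of non-control probe sets with the highest mean log2 signal were tested (7453, limit at a signal of 21.3) in R 4.3.3 by limma 3.58.1 (moderated F-test from lmFit and trended eBayes, 8 residual degrees of freedom). With 1 pool per strain, p-values measure technical spread only. A gene of a list was represented by its probe set of highest mean. The code was checked on simulated data. 0 pairs of arrays held identical values.

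The preparation numbers pair the samples, because the design text ties each number to a preparation. The difference between preparations correlated for all 28 pairs of strains (r 0.109 to 0.557, median 0.385). The paired fit, with the number as a replicate block, is printed where it moved a count (6 of 22 genes of the pyridoxal phosphate list). It is also printed beside the p-values of the named list genes. Named were all Pdxdc1 probe sets, the 4 most alike and 4 most opposite genes to each, Gad1, Gad2, Ddc and Pdxk, and the 3 nearest measured neighbours on either side; other names were added after their values were seen. The gene and the lists were chosen with earlier results of these data known. Alternatives covered normalization, offset, filter, block, day, unit, variance trend and leaving out arrays, preparations or BALB/cByJ.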

Additional observations from a re-analysis of the deposited data

How the results depend on the processing

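DBA/2J, C3H/HeJ and BALB/cByJ stayed on their side of the other strains in 60 of 60 settings (the reported one included) on 97713_at and 160163_at, and in 59 of 60 on 94312_at, day B being the exception. The sign of every correlation between Pdxdc1 probe sets was the same in each setting. Adding 16 to each signal gave strain ranges of 3.71 (97713_at), 2.49 (160163_at) and 1.80 (94312_at), and adding 64 gave 2.33, 1.40 and 1.12, because low signals weigh less. Within days the ranges were 5.82, 5.32 and 5.16 on day A, 3.10 for 94312_at on day B, 5.76 for 97713_at on day C, and 6.25 for 97713_at and 1.89 for 94312_at on day D, each from single arrays. Spearman's rho was -0.786, -0.667 and 0.452 for 97713_at with 160163_at, 97713_at with 94312_at and 160163_at with 94312_at. Leaving out single arrays or preparations gave ranges of 5.22 to 5.60 (97713_at), 3.61 to 4.59 (160163_at) and 2.30 to 3.77 (94312_at), and correlations in the same order of -0.990 to -0.915, -0.980 to -0.911 and 0.771 to 0.968. The values of -0.911 and 3.77 came without array 2 of BALB/cByJ, 5.60 without array 3 of C57BL/6J and -0.915 without the second preparation of BALB/cByJ.

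The count of genes with an opposed pair was 1 with an offset of 64, without BALB/cByJ, without the arrays high in sense-strand controls and with array 2 of FVB/NJ counted in preparation 2. It was 1 to 4 when arrays or preparations were left out. With the 50% of probe sets of highest mean it was 0, because 97713_at, with a mean of 5.05, was then not among those tested, and with no filter it was 7. In every other setting in which pairs were counted, Pdxdc1 was among the genes. Probe sets past the F-test numbered 1405 with the preparation number as a replicate block, 1388 with single arrays, 2324 with single arrays and the day, 162 without the arrays high in sense-strand controls, and 260 to 380 with arrays or preparations left out. Genes of the pyridoxal phosphate list past it numbered 6 with the block, 4 with single arrays, 6 with single arrays and the day, 1 with arrays centred on their median, and 0 to 1 with arrays or preparations left out. Of the neighbours 1 passed with single arrays and the day. The cause of these shifts was not tested. Single arrays treat hybridisations of the same cRNA as separate units, so their counts are not counts of strain differences between animals.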

Other observations

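On 94312_at the first 2 arrays of BALB/cByJ, hybridised with the same cRNA, read 1.93 and 6.49. Over the 24 groups of 4 arrays (3 Pdxdc1 probe sets in 8 strains), 0 held an array that exceeded Dixon's 95% critical value. With 4 values per group, and these readings at both ends of theirs, the test could not decide whether either was an outlier.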
